A study of Mus musculus with 20 samples.

Results

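The genes described here are members of the B-cell lineage, chosen by name to follow the course from B-cell precursors in bone marrow to antibody-secreting plasma cells. Of the 35 genes listed, 32 were among the 14793 genes of the deposited table and were analysed. The other 3, Ighm, Igkc and Ighd, encode immunoglobulin constant regions. They belong to an annotation class of their own, the table holds genes of the protein-coding class, and they were not analysed here. The 32 genes comprised 8 genes of pro-B and pre-B cells, 6 transcription factors, 12 genes of B-cell receptor signalling and its restraint, 4 genes of mature B cells, and the plasma cell genes Jchain and Mzb1.

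RNA was sequenced from the operated knee joints of male C57BL/6Nci mice. The mice were 12 weeks old when the medial meniscus was destabilized (DMM) to bring on osteoarthritis, and older when the joints were taken. All 4 groups had this surgery. In control joints a needle was inserted without cells. The treated joints were injected with mesenchymal stromal cells (MSC) grown from mouse adipose tissue, which were unstimulated (MSC), stimulated with the Toll-like receptor 3 agonist pIC (TLR3-MSC), or stimulated with cGAMP to engage the STING pathway (STING-MSC). Treatments were given at weeks 3 and 5 after surgery, and 5 of the 10 mice in each group gave a joint for sequencing, 20 joints in all. The injected cells came from 1 donor pool, so cell donors were not replicated. Each sample was minced joint tissue with cartilage, synovium, capsule and the adjoining bone, and unoperated joints were not analysed here. The time of harvest is given in different ways in the study's text and is not stated here. The sample columns of the table carry a prefix that coincides with the group, and its meaning is not given in the sources used here. If it marks a batch, batch and group cannot be told apart in any comparison between groups. Between 27955496 and 52529972 reads per joint fell on the genes of the table, and each of the 32 genes had reads in every joint.

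B cells are made in bone marrow. Precursors rearrange their immunoglobulin genes with the recombinase Rag1/Rag2 and the nucleotide-adding enzyme Dntt, and display the first heavy chain with a surrogate light chain made of Igll1 and Vpreb proteins. The factors Ebf1 and Pax5 commit cells to the lineage. Maturing cells carry the receptor with its signalling partners Cd79a and Cd79b. Mature cells in blood and lymphoid tissue carry Ms4a1 (CD20), Cr2 (CD21) and Fcer2a (CD23). Plasma cells secrete antibody, joined into polymers by the J chain (Jchain). A knee joint sample that includes bone can therefore hold marrow precursors as well as mature B cells and plasma cells. In bulk RNA, fewer cells of a type cannot be told apart from less RNA per cell.

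The comparisons addressed whether intra-articular MSC, with or without stimulation, altered B-lineage transcripts in the operated joint. Ebf1 was the single member that passed an unadjusted p of 0.05 in any of the 6 comparisons between groups. It was lower in STING-MSC joints than in control joints and than in TLR3-MSC joints, and it did not pass after adjustment over all genes. The pro-B and pre-B, mature B and plasma cell genes gave no difference between groups that passed this test.

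Differences between groups were fitted per gene by limma, on the scale log2(normalized count + 1), with p-values adjusted by the Benjamini-Hochberg method (FDR) over the 14793 genes. At an unadjusted p of at most 0.05, 0 of the 32 members were called in MSC joints against control, where 8.55% of all genes were called. In TLR3-MSC joints against control, 0 members were called beside 3.58% of all genes. In STING-MSC joints against control, 1 member was called (Ebf1, lower) beside 12.2% of all genes in either direction and 5.69% of all genes in that direction. Against MSC joints, 0 members were called in TLR3-MSC joints and 0 in STING-MSC joints, with 3.88% and 4.94% of all genes called. In STING-MSC joints against TLR3-MSC joints, 1 member was called (Ebf1, lower) beside 2.57% of all genes in either direction and 1.78% in that direction. MSC replicate 2 weighed on these counts, since without it 5 members passed between MSC and control joints, 8 between TLR3-MSC and MSC joints and 3 between STING-MSC and MSC joints. Without STING-MSC replicate 1, 2 members (Rag2 and Ebf1) passed between STING-MSC and control joints. MSC replicate 2 had the lowest MSC value of 27 of the 32 members. The share of all genes called in these refits is not given here, and their counts are not read as a result about the members. A stricter rule, the same p together with a fold change of at least 2, was passed by 0 members in each of the 6 comparisons, where 0.73% (MSC against control), 0.331% (TLR3-MSC against control), 2.06% (STING-MSC against control), 0.399% (TLR3-MSC against MSC), 0.507% (STING-MSC against MSC) and 0.622% (STING-MSC against TLR3-MSC) of all genes passed it. An FDR of at most 0.05 was likewise reached by 0 members with limma, with edgeR and with DESeq2, and by limma 0.00676% of all genes reached it in MSC joints against control and 0 genes in the other comparisons.

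Between MSC and control joints the median log2 fold change of the members was 0.09, with 22 of 32 above 0, beside a median of -0.04 over all genes and 42.3% above 0. Between TLR3-MSC and control joints the members' median was -0.11 with 9 of 32 above 0, beside 47.9% of all genes. Between STING-MSC and control joints it was -0.02 with 14 of 32 above 0, beside 51.7% of all genes. These 3 comparisons share the control joints. The median was lowest between TLR3-MSC and MSC joints, at -0.23 with 4 of 32 above 0, beside 57.4% of all genes. It was -0.12 between STING-MSC and MSC joints, with 8 of 32 above 0 beside 55.5% of all genes, and 0.14 between STING-MSC and TLR3-MSC joints, with 26 of 32 above 0 beside 55.3%. Members that rise and fall together across joints, as described further on, are not independent counts.

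These medians moved when single joints were left out. Between MSC and control joints the median was -0.04 without control replicate 4, near 0 without MSC replicate 1, 0.02 without MSC replicate 3, 0.16 without MSC replicate 5, 0.17 without control replicate 1 and 0.25 without MSC replicate 2. Between TLR3-MSC and control joints it stayed below 0 with each joint left out, from -0.25 without control replicate 4 to -0.02 without control replicate 1. The median between STING-MSC and control joints had no stable sign. It was above 0 with edgeR (0.018) and DESeq2 (0.029) and without control replicate 1 or 2 or STING-MSC replicate 1 or 2, at most 0.13 (STING-MSC replicate 1), and at lowest -0.15 without STING-MSC replicate 5. For TLR3-MSC joints against MSC joints the median was below 0 in every alternative run, from -0.41 without MSC replicate 2 to -0.13 without MSC replicate 1. Between STING-MSC and MSC joints it ran from -0.27 without MSC replicate 2 to 0.05 without STING-MSC replicate 1. Between STING-MSC and TLR3-MSC joints it stayed above 0, from 0.03 without STING-MSC replicate 3 to 0.27 without STING-MSC replicate 1.

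The 95% interval of the fold change lay within a 2-fold change in either direction for 29 members in MSC joints against control, for 32 in TLR3-MSC joints and for 31 in STING-MSC joints, and its median half-width was 0.53 on the log2 scale.

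**Figure D1:**
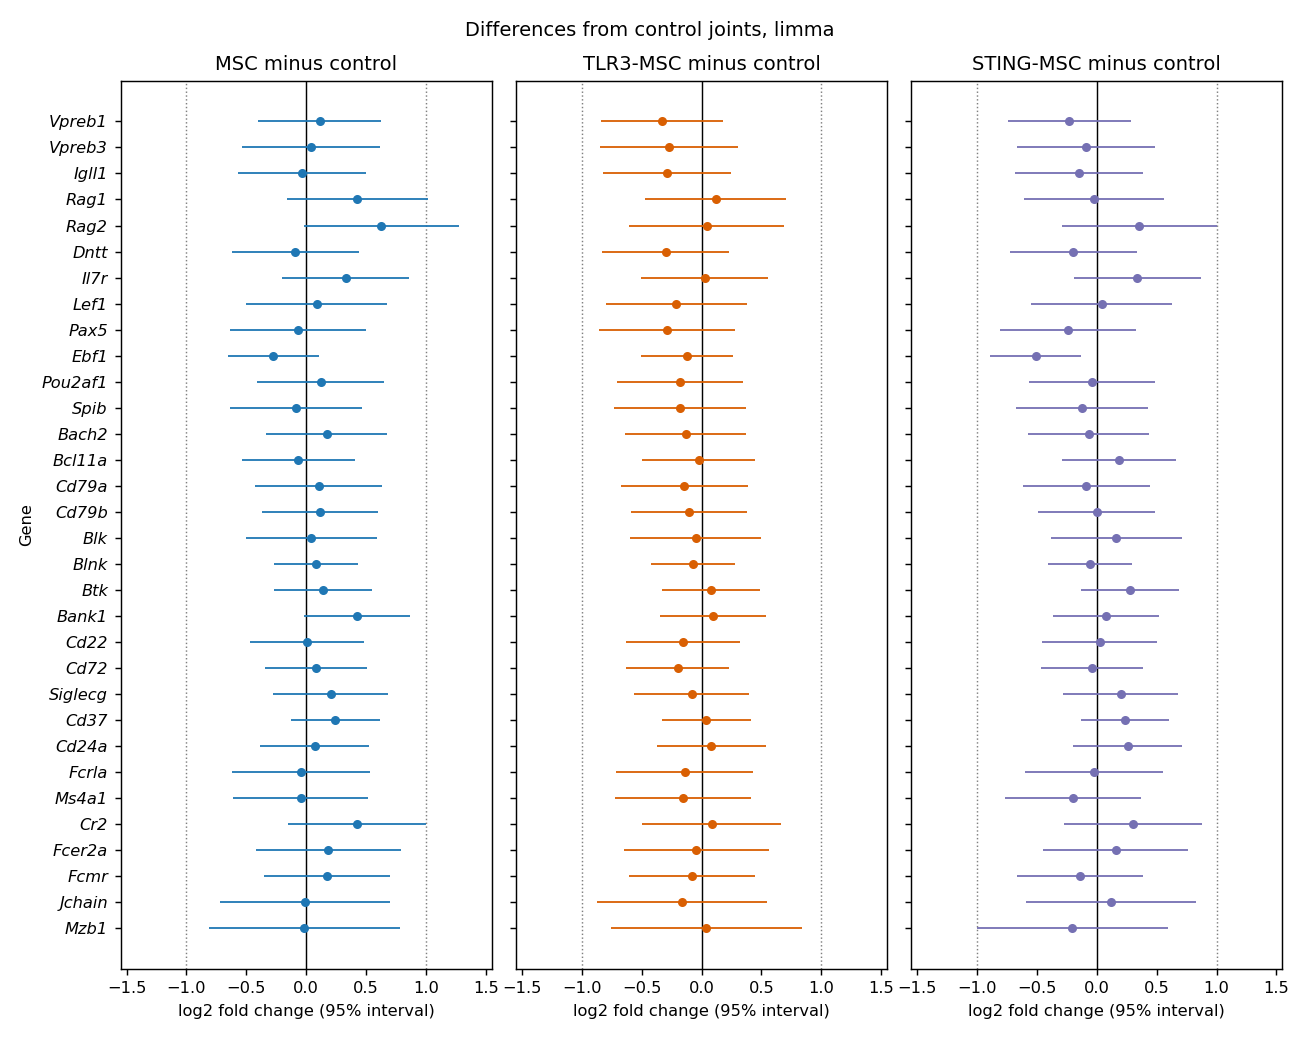
Log2 fold changes of the 32 genes in MSC, TLR3-MSC and STING-MSC joints against control joints (points) with 95% intervals from limma (lines); dotted lines mark a 2-fold change. The interval of Ebf1 in STING-MSC joints lies wholly below 0, and every other interval crosses 0.

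Genes of pro-B and pre-B cells were measured at clear levels. Igll1, the lambda-5 part of the surrogate light chain (chromosome 16, 16678535 to 16681850, minus strand, 3 exons, GRCm39), had normalized counts of 677, 548, 572, 466 and 612 in the 5 control joints. The counts were 905, 328, 682, 629 and 422 in MSC joints, 538, 502, 382, 541 and 398 in TLR3-MSC joints and 274, 504, 640.3, 566 and 731 in STING-MSC joints. The lowest and highest values belonged to STING-MSC replicate 1 and MSC replicate 1, and the 4 groups overlapped. Group means were 575 ± 78.2 (SD, n = 5) in control, 593 ± 227 in MSC, 472 ± 76.7 in TLR3-MSC and 543 ± 173 in STING-MSC joints. The log2 fold changes of Igll1 against control were -0.03 (95% interval -0.57 to 0.50), -0.29 (-0.82 to 0.24) and -0.14 (-0.68 to 0.39) in MSC, TLR3-MSC and STING-MSC joints.

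Vpreb1, the partner of Igll1 in the surrogate light chain (chromosome 16, 16686267 to 16688708, minus strand), lies next to Igll1 on the same strand. Its normalized counts were 486, 391, 386, 317 and 461 in control joints and 384, 329, 244, 366 and 303 in TLR3-MSC joints. They were 621, 295, 461, 521 and 358 in MSC joints and 173, 400.0, 534, 365 and 359.8 in STING-MSC joints. The TLR3-MSC joints lay toward the low end of the control range, but 3 of them were above the lowest control joint. The difference of TLR3-MSC from control was -0.33 on the log2 scale (SE 0.24, limma p = 0.194, FDR = 1.00, exact permutation p = 0.0635). A similar gene, Vpreb2, had counts between 17.3 and 86.5, and reads shared between these copies could have been assigned to either.

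The recombinase genes had their highest group means in MSC joints. Rag1 had normalized counts of 1222, 1273, 790.5, 1178 and 1189 in control joints and 2279, 764, 2145, 1476 and 1371 in MSC joints. Its counts were 1533, 1549, 929, 1144 and 1027 in TLR3-MSC joints and 842, 689, 1654, 1036 and 1591 in STING-MSC joints. In MSC joints 4 of the 5 Rag1 values were above every control joint and MSC replicate 2 was below every control joint. The difference was 0.43 on the log2 scale (SE 0.28, limma p = 0.144, FDR = 0.685, exact permutation p = 0.175).

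Rag2, the partner of Rag1 encoded beside it on chromosome 2, was a low gene. Its normalized counts were 81.5, 85.8, 54.0, 86.8 and 103 in control joints and 188, 76.6, 175, 119 and 100.8 in MSC joints. They were 119, 104, 55.0, 74.6 and 76.9 in TLR3-MSC joints and 49.8, 85.6, 139, 124 and 159 in STING-MSC joints. Rag2 had the largest fold change of any member, 0.63 between MSC and control joints (95% interval -0.02 to 1.27, limma p = 0.0577, FDR = 0.596, exact permutation p = 0.0714), which did not pass. Without MSC replicate 2 the difference in Rag2 passed an unadjusted p of 0.05, as did those in Rag1, Ebf1, Bank1 and Cr2, 5 members in all. The B-cell adaptor Bank1 differed by 0.42 between MSC and control joints in the fit of all joints (limma p = 0.0593, FDR = 0.596, exact permutation p = 0.151). Both Rag2 and Bank1 passed the unadjusted threshold with edgeR and with DESeq2. The lowest FDR of the members was 0.492 with edgeR, 0.404 with DESeq2 and 0.156 with limma without MSC replicate 2. The share of all genes called in these runs is not given here, and these calls are not read as a result about the members.

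Dntt, which adds nucleotides at the joins of rearranging genes, had normalized counts of 798, 727, 665, 496 and 722 in control joints and 353, 689.9, 747, 622 and 619 in STING-MSC joints. It had counts of 983, 408, 817, 792 and 387 in MSC joints and 642, 602, 397, 644 and 496 in TLR3-MSC joints. The groups overlapped, and the log2 fold changes against control were -0.09, -0.30 and -0.20 in MSC, TLR3-MSC and STING-MSC joints (limma p of 0.722, 0.253 and 0.449). Of the remaining precursor genes, Vpreb3, a surrogate light chain homologue, ranged from 427 to 1286, and Il7r, the receptor for the precursor growth factor interleukin 7, from 417 to 1225. Lef1, a transcription factor of early B and T cells, ranged from 135 to 377. None of these 3 genes passed in any of the 6 comparisons.

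Among the transcription factors, Ebf1 (chromosome 11, 44508144 to 44898919, plus strand, 16 exons) behaved unlike the others. Normalized counts of Ebf1 were 2037, 2239.9, 2674, 3397 and 1882 in control joints and 1484, 1686, 1926, 1753 and 1573 in STING-MSC joints. Those of MSC joints were 2163, 2796, 1938, 1166 and 2194, and those of TLR3-MSC joints were 2008, 2343, 2201, 2030.0 and 2433. STING-MSC joints were low and close together, with 4 of 5 below every control joint and 5 of 5 below every TLR3-MSC joint. The lowest of the 20 values was in MSC replicate 4. Means were 1684 ± 169.9 (SD, n = 5) in STING-MSC, 2446 ± 609 in control, 2051 ± 588 in MSC and 2203 ± 188 in TLR3-MSC joints.

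The difference in Ebf1 between STING-MSC and control joints was -0.51 on the log2 scale (SE 0.18, 95% interval -0.89 to -0.13, limma p = 0.0112, FDR = 0.330, exact permutation p = 0.0159). Against TLR3-MSC joints it was -0.39 (95% interval -0.77 to -0.01, limma p = 0.0455, FDR = 0.890, exact permutation p = 0.00794). The groups did not overlap, which 1.35% of all genes showed in that comparison, and this permutation p is the smallest that 5 joints against 5 allow. Without TLR3-MSC replicate 2, 3 or 5, or STING-MSC replicate 1, 2, 4 or 5, the limma p against TLR3-MSC joints was above 0.05, with log2 fold changes of -0.34 to -0.40. Against MSC joints the difference in Ebf1 was -0.23 (limma p = 0.212, exact permutation p = 0.333). Ebf1 is also made in adipocytes and stromal cells, and control replicate 4, in which most B-lineage genes had their lowest control value, had the highest Ebf1 of all joints.

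Pax5, the factor that holds cells in the B lineage, had normalized counts of 2353, 2401, 1874, 1407 and 1915 in control joints and 2579.5, 979.9, 2375, 1929 and 1956 in MSC joints. They were 2049.8, 1785, 1306, 1682 and 1313 in TLR3-MSC joints and 1048, 1234, 2343, 1483 and 2779 in STING-MSC joints. Pax5 values overlapped between all groups, and its log2 fold changes against control were -0.07, -0.29 and -0.24 in MSC, TLR3-MSC and STING-MSC joints (limma p of 0.809, 0.303 and 0.390). Pou2af1, a coactivator at octamer sites, ranged from 1060 to 2537 over the 20 joints. Spib, an Ets-family factor of B cells and plasmacytoid dendritic cells, ranged from 1350 to 3841. Bach2, which restrains plasma cell differentiation, ranged from 643 to 1682, and Bcl11a, needed in early lymphoid cells, from 561 to 1401.

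**Figure D2:**
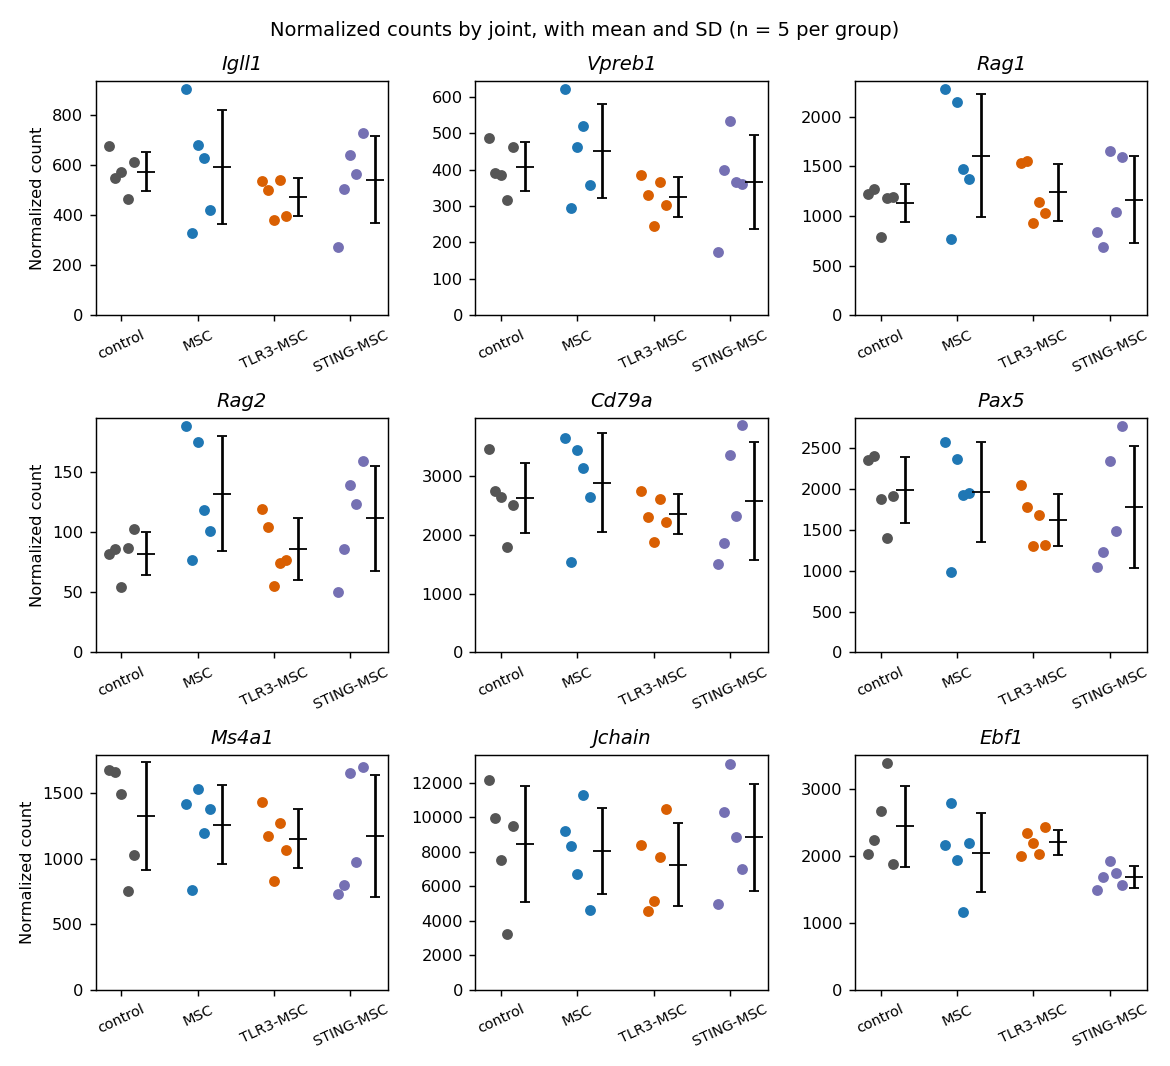
Normalized counts (linear y axis from 0) of 9 genes in each joint of the 4 groups, with each joint as a point in the order of its replicate number and the group mean ± SD (n = 5) beside it. Values of the groups overlap, except that every STING-MSC joint has less Ebf1 than every TLR3-MSC joint.

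Of the receptor signalling genes, Cd79a, the alpha chain of the receptor's signalling pair (chromosome 7, 24596806 to 24601623, plus strand), had normalized counts of 3456, 2741, 2637, 1800.1 and 2498 in control joints. Counts of Cd79a were 3642, 1539, 3447, 3141 and 2648 in MSC joints, 2736, 2299, 1871, 2607 and 2222 in TLR3-MSC joints and 1495, 1854, 3350.5, 2323 and 3862 in STING-MSC joints. Both the lowest and the highest of the 20 values were in STING-MSC joints. The log2 fold changes of Cd79a against control were 0.10 (95% interval -0.43 to 0.64), -0.14 (-0.68 to 0.39) and -0.09 (-0.62 to 0.45) in MSC, TLR3-MSC and STING-MSC joints. Cd79b, the beta chain, followed Cd79a closely. The ratio of Cd79a to Cd79b counts stayed between 0.897 and 1.10 over the 20 joints, while Cd79a itself spanned a 2.58-fold range.

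The kinases Blk and Btk, the adaptors Blnk and Bank1, the inhibitory receptors Cd22, Cd72 and Siglecg, the tetraspanin Cd37, the surface protein Cd24a and the Fc receptor-like protein Fcrla completed the signalling group. The 12 genes gave 0 calls in each of the 6 comparisons. The spread of their highest over lowest joint was 1.98-fold for Blnk, the narrowest of all members, and 2.96-fold for Blk. Cd24a had by far the highest level, between 31209 and 67545 normalized counts. Cd24a is also made by granulocytes, red cell precursors and epithelial cells, and Cd37 and Btk by myeloid cells. Of the exon bases of Cd72, 55.2% overlap the gene Tesk1 on the opposite strand, and whether counting used strand was not given in the sources used here.

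Of the mature B-cell genes, Ms4a1 (chromosome 19, 11227039 to 11243606, minus strand) had normalized counts of 1678, 1660.0, 1494, 751 and 1027 in control joints. Ms4a1 counts were 1417, 763, 1532, 1193 and 1376 in MSC joints, 1429, 1169, 827, 1269.8 and 1065 in TLR3-MSC joints and 733, 801, 1651, 972 and 1701 in STING-MSC joints. Control and STING-MSC joints each held both low and high values. The log2 fold changes of Ms4a1 against control were -0.05, -0.16 and -0.20 in MSC, TLR3-MSC and STING-MSC joints (limma p of 0.862, 0.570 and 0.468). The complement receptor Cr2 ranged from 69.4 to 284, the IgE receptor Fcer2a from 154 to 522, and the IgM receptor Fcmr from 334 to 936. Each of these 3 receptor genes had its lowest value in control replicate 4.

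Jchain (chromosome 5, 88667668 to 88675751, minus strand) was the plasma cell gene with the higher level. Its normalized counts were 12167, 9942, 7519, 3236 and 9498 in control joints and 9203, 8344, 6718, 11311 and 4640.4 in MSC joints. They were 8411, 4568, 5157, 7686 and 10469.5 in TLR3-MSC joints and 4988, 10317, 13102, 8862 and 6988 in STING-MSC joints. Jchain spanned a 4.05-fold range over the 20 joints, and its within-group SD of 0.58 on the log2 scale was the widest of all members. The log2 fold changes of Jchain against control were -0.01 (95% interval -0.72 to 0.70), -0.16 (-0.87 to 0.55) and 0.12 (-0.59 to 0.83) in MSC, TLR3-MSC and STING-MSC joints.

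Mzb1, a chaperone of antibody assembly, was listed at 6.21 to 30.3 normalized counts. Control joints had 18, 13.3, 13.8, 12.8 and 10.2, MSC joints 12.1, 15.2, 9.95, 18.1 and 12.2, TLR3-MSC joints 30.3, 17.0, 14.7, 6.21 and 10.2 and STING-MSC joints 7.87, 25.7, 10.4, 13.7 and 6.72. The highest and lowest joints for Mzb1 were both in the TLR3-MSC group. Of the exon bases of Mzb1, 61.7% also belong to an annotated gene, Gm50318, on the same strand, and the reads that fell on shared exons could have been left out of the count for Mzb1. The log2 fold changes of Mzb1 against control were -0.02, 0.04 and -0.20, and their intervals were the widest of all members.

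Compared per kilobase of transcript, control joints had a mean level of 24896 normalized counts for Cd24a and 6082 for Jchain, the top of the members. The receptor chains Cd79b and Cd79a followed Cd37 at 1812 and 1725 per kilobase. Precursor genes stood in the same range as mature ones on this scale, with Vpreb3 at 1354, Igll1 at 661 and Vpreb1 at 513 beside Ms4a1 at 429.9 per kilobase. Igll1 and Vpreb1 are made in precursors and switched off in mature B cells, and both had reads in every joint. Cr2 at 35.7, Rag2 at 24.0 and Mzb1 at 12.1 per kilobase were the lowest.

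B-lineage genes varied more between joints of the same group than genes of the whole table did. The median SD within groups was 0.43 on the log2 scale over the 32 members and 0.26 over all genes. The median SD of the 4 group means was 0.13 and 0.11. Means of 5 joints spread less than single joints, so these 2 kinds of SD are not set against each other. In each group 1 joint had the lowest value of most members. It was control replicate 4 for 26 of 32 genes, MSC replicate 2 for 27, TLR3-MSC replicate 3 for 23 and STING-MSC replicate 1 for 24. The same joints had the lowest value of their group for 29.7%, 17.8%, 27.8% and 15.7% of all genes. The highest values were gathered in control replicate 1 (23 genes), MSC replicate 1 (20), TLR3-MSC replicate 1 (21) and STING-MSC replicate 5 (24). These joints had the highest value of their group for 18.3%, 15.6%, 28.5% and 31.4% of all genes.

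**Figure D3:**
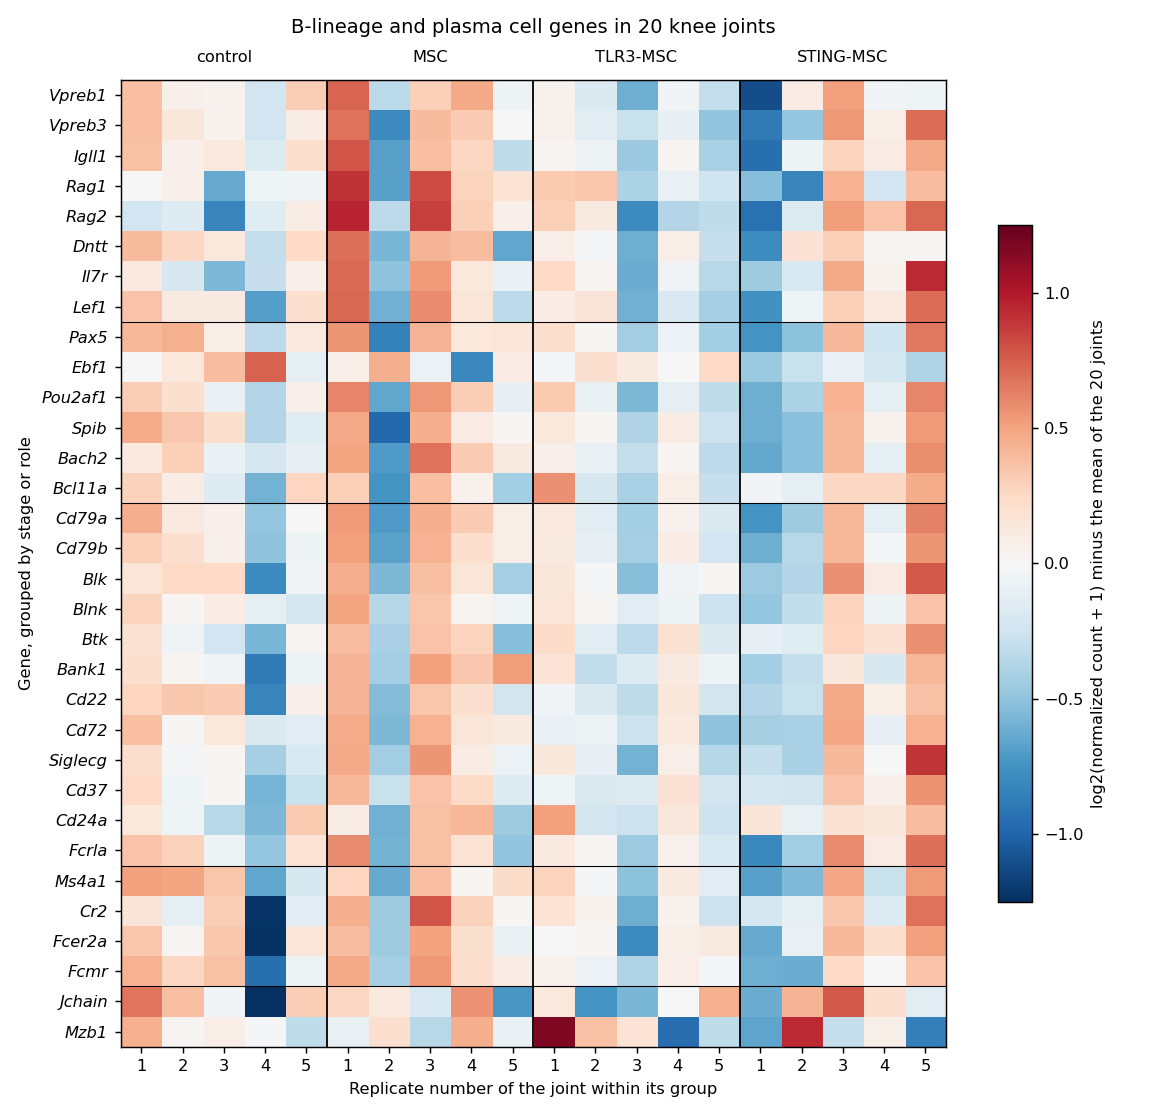
Level of each of the 32 genes (rows, ordered by stage or role and separated by lines) in the 20 joints (columns, by group and replicate number), as log2(normalized count + 1) minus the mean of the 20 joints; colours saturate at the ends of the scale. Whole columns are shaded alike, as in MSC replicate 2 and STING-MSC replicate 1, while Ebf1, Jchain and Mzb1 depart from the other rows.

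The joints low in B-lineage genes were not the same as those low in granulocyte genes in every group. Control replicate 4 had the lowest control value of 12 of 13 neutrophil and granulocyte progenitor markers. In MSC joints, replicate 5 was lowest for 11 of these 13 markers while replicate 2 was lowest for 27 of the B-lineage genes. In TLR3-MSC joints, replicates 2, 3 and 5 were lowest for 6, 4 and 3 of the markers, while replicate 3 was lowest for 23 of the B-lineage genes. In STING-MSC joints, replicate 2 was lowest for all 13 markers while replicate 1 was lowest for 24 of the B-lineage genes.

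Ratios between genes of different stages varied more than the ratio of Cd79a to Cd79b. Igll1 to Ms4a1, a precursor to a mature B-cell gene, was between 0.307 and 0.639, and its group medians were 0.404 in control, 0.445 in MSC, 0.426 in TLR3-MSC and 0.430 in STING-MSC joints. Jchain to Cd79a ranged from 1.75 in MSC replicate 5 to 5.56 in STING-MSC replicate 2, and its lowest control value of 1.80 was in replicate 4. Vpreb1 to Cd79a ranged from 0.0932 to 0.216, with both ends in STING-MSC joints.

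Across the 20 joints, with group means subtracted, Igll1 and Ms4a1 rose and fell together (Pearson r = 0.71, adjusted permutation p = 0.00387, Spearman rho = 0.72, adjusted p = 0.00312, over 18 relations). Without MSC replicate 2 and STING-MSC replicate 1, the joints farthest from the median of Igll1, r was 0.58. Igll1 with Jchain gave r = 0.44 (rho = 0.39, adjusted permutation p = 0.122 and 0.173) and Ms4a1 with Jchain r = 0.41 (rho = 0.36, adjusted permutation p = 0.139 and 0.202), neither of which passed. Without MSC replicate 2 alone, Igll1 with Jchain gave r = 0.54 (adjusted permutation p = 0.0472) but rho = 0.41 (adjusted permutation p = 0.193), and r was 0.32 without MSC replicate 5 and STING-MSC replicate 1 as well. The values of a joint share a library and its scaling. The permutations exchanged all deviations freely, although subtracting group means ties the deviations within a group. The permutation p-values of the relations can therefore be too small. This weighs most on relations near the threshold, such as those of Igll1 with Alas2 and Ckm and of Jchain with Mpo.

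Igll1 was also related to genes of other lineages in the marrow and to a muscle gene. With Mpo, the myeloperoxidase of granulocyte progenitors, r was 0.68 (rho = 0.77, adjusted permutation p = 0.00594 and 0.00312, r = 0.76 without the same pair of joints). With Alas2, the haem synthesis enzyme of red cell precursors, it was 0.54 (rho = 0.64, adjusted permutation p = 0.0371 and 0.0103), and without MSC replicate 2 it was 0.43 and did not pass (adjusted permutation p = 0.111). With the muscle creatine kinase Ckm it was -0.58 (rho = -0.68, adjusted permutation p = 0.0252 and 0.0058, r = -0.72 without the pair). Ms4a1 was related to Mpo with r = 0.73 (rho = 0.72, adjusted permutation p = 0.00387 and 0.00312), which was 0.58 without control replicate 4 and MSC replicate 2. Ms4a1 and Ckm gave r = -0.52 (rho = -0.52, adjusted permutation p = 0.05 and 0.058), at the threshold by Pearson and not past it by Spearman. Without MSC replicate 2, r for this pair was -0.56 and rho was -0.55 (adjusted permutation p = 0.039 and 0.0633).

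Jchain and Mpo gave r = 0.61 (adjusted permutation p = 0.0194), but rho was 0.48 (adjusted permutation p = 0.0865) and r was 0.48 without control replicate 4 and STING-MSC replicate 1. Neither Igll1, Ms4a1 nor Jchain passed with the T-cell gene Cd3e or the adipocyte gene Adipoq, with r between -0.38 and 0.13. Ms4a1 and Jchain with Alas2, and Jchain with Ckm, did not pass either. How much marrow or muscle entered each sample was not measured, and its part in these relations was not tested.

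**Figure D4:**
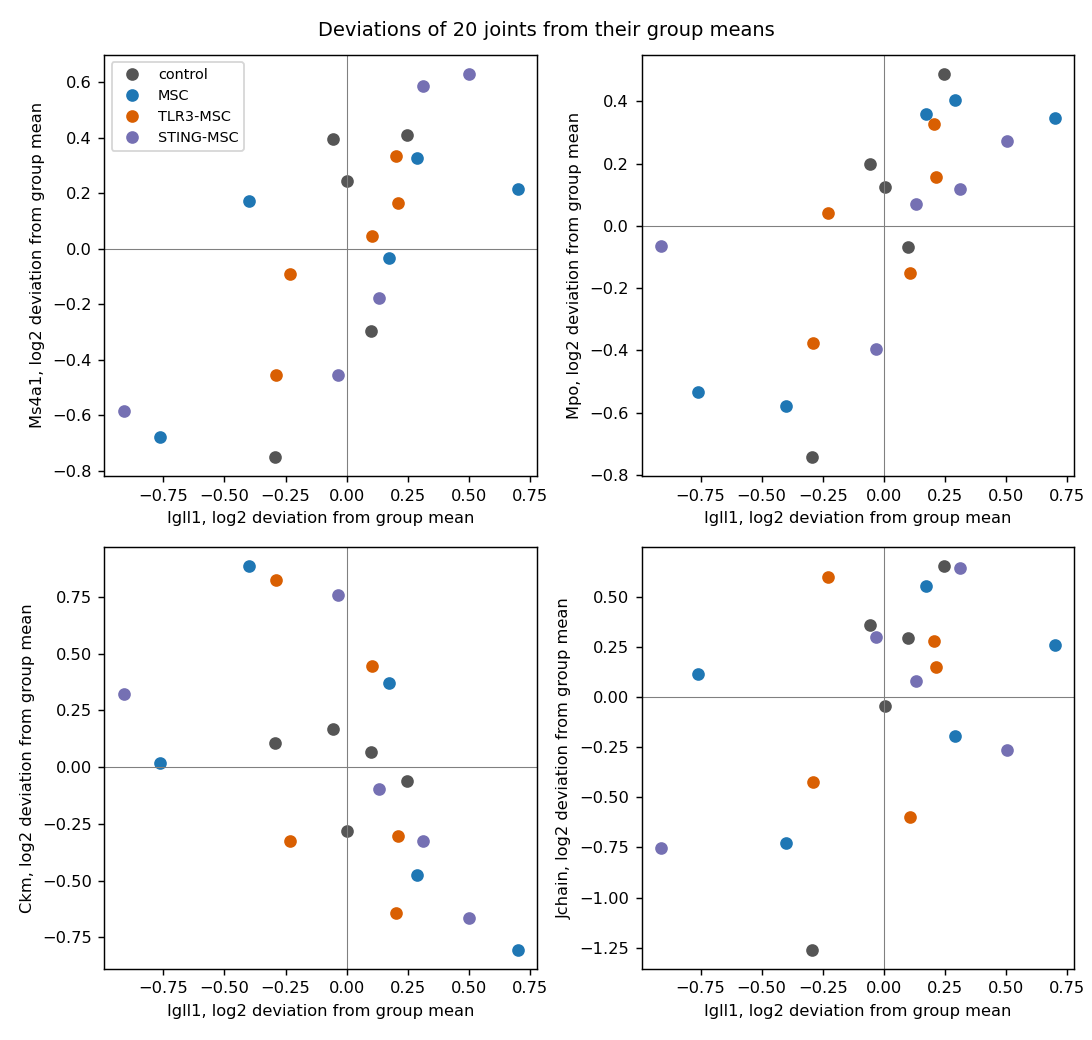
Deviation of each joint from its group mean on the log2(normalized count + 1) scale for Igll1 (x axes) against Ms4a1, Mpo, Ckm and Jchain (y axes), with joints coloured by group (n = 20). Igll1 rises with Ms4a1 (r = 0.71) and Mpo (r = 0.68), falls with Ckm (r = -0.58), and is scattered against Jchain (r = 0.44).

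Promoters of the members were searched for short motifs of B-lineage factors. RefSeq promoter windows of 250 bases before the transcription start (build GRCm38.p6) were matched by symbol for 27 of the 32 genes. The E-box letters CAGGTG, read on both strands, occurred for 11 of the 27 genes (40.7%), among them Igll1, Vpreb1, Rag1 and Cd79a, and for 18.9% of the 11627 genes of the table with a window, counted in the same way. The octamer letters ATGCAAAT were found for Vpreb3 and Blnk (7.41% beside 1.53% of the table's genes). The letters CCCNNGGG, part of sites for Ebf1, were found for Igll1, Spib, Bank1 and Cd22 (14.8%, below the 18.5% of the table's genes). None of these 3 sets of letters occurred in the Jchain window. Windows are printed for 4 genes, namely Igll1 and Vpreb1 of the surrogate light chain, its homologue Vpreb3 and the receptor chain Cd79a. Each runs 5′ to 3′ on the strand of the gene, and capitals mark the motif letters or their reverse complement.
Igll1, chr16:16863986-16864235, minus strand: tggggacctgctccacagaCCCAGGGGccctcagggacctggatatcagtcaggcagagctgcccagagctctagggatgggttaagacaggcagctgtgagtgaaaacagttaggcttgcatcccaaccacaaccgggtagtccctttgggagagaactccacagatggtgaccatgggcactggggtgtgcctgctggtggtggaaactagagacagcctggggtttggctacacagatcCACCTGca
Vpreb1, chr16:16869256-16869505, minus strand: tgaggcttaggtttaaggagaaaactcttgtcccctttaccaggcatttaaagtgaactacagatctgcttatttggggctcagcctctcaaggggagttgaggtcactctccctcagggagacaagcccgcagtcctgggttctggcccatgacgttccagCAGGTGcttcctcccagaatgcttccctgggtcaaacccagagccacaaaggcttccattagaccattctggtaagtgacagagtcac
Vpreb3, chr10:75948050-75948299, plus strand: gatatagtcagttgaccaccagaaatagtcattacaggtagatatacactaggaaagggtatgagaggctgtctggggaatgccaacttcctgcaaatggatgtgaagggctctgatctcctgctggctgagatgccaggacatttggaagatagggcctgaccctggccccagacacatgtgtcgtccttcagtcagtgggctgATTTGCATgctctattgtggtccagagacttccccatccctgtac
Cd79a, chr7:24897247-24897496, plus strand: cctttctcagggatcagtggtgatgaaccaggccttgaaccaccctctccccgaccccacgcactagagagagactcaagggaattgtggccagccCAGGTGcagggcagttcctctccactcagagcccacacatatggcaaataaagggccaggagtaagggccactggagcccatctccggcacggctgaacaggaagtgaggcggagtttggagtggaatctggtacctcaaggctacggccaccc
In these windows the E box starts 8 bases before the transcription start in Igll1, 88 in Vpreb1 and 154 in Cd79a, the CCCNNGGG letters 231 in Igll1, and the octamer 45 in Vpreb3. A match in letters is a description of the sequence and not a bound site. Any link between a match and the movement of genes together across joints was not tested.

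Other genes of the B lineage were taken from wider lists. Of 29 further B-lineage identity genes, 2 were higher and 1 was lower in MSC joints against control at an unadjusted p of 0.05, 2 were higher in TLR3-MSC joints, and 2 were higher and 2 lower in STING-MSC joints. Over all genes, 5.64%, 2.68% and 6.54% were higher and 8.55%, 3.58% and 12.2% passed in either direction, and these small counts are not read as a result about the list. Bst1, which neutrophils also express, was among the higher genes in each of the 3 treated groups. In TLR3-MSC joints against control, Scd1, a fatty acid desaturase also made in adipocytes, was past a 2-fold change (1.14 on the log2 scale, limma p = 0.0447, FDR = 1.00, exact permutation p = 0.0794).

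Fcrl5, an Fc receptor-like gene of mature B cells and plasma cells, was low throughout. Its normalized counts were 14.8, 16.9, 10.1, 8.22 and 21.8 in control joints, 42.9, 10.1, 25.9, 19.0 and 31.6 in MSC joints, 10.1, 10.5, 4.02, 9.32 and 9.04 in TLR3-MSC joints and 14.4, 22.0, 18.8, 11.2 and 33.6 in STING-MSC joints. Every TLR3-MSC joint was below every STING-MSC joint, the nearest values being 10.5 and 11.2. Of all genes, 1.35% did not overlap in that comparison, in either direction. Fcrl5 alone of the 29 genes passed the rule with a 2-fold change against MSC and against STING-MSC joints. Of all genes, 0.399% (TLR3-MSC against MSC) and 0.622% (STING-MSC against TLR3-MSC) passed it. The difference of TLR3-MSC from MSC joints was -1.40 on the log2 scale (limma p = 0.00197, FDR = 0.978, exact permutation p = 0.0238), and that of STING-MSC from TLR3-MSC joints was 1.10 (limma p = 0.0112, FDR = 0.890, exact permutation p = 0.00794).

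Of 20 further receptor signalling genes, 4 were higher in MSC joints, 0 in TLR3-MSC joints and 10 in STING-MSC joints against control, and 0 were lower, beside the same 5.64%, 2.68% and 6.54% of all genes higher. The 10 were Syk, Lyn, Plcg2, Vav1, Malt1, Prkcb, Pik3cd, Ptpn6, Dok3 and Fcgr2b, which myeloid cells also express. Beside these, 8 of 13 neutrophil and granulocyte progenitor markers were higher in MSC joints, 1 in TLR3-MSC joints and 10 in STING-MSC joints against control. The summed level of the neutrophil markers was 426229 to 769848 normalized counts in control, 609526 to 1047250 in MSC, 575484 to 884764 in TLR3-MSC and 611822 to 956768 in STING-MSC joints. The part of granulocytes in the signalling genes was not tested.

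Of 20 plasma cell and secretion genes, 3 were higher in MSC joints (Edem1, Sdf2l1 and Pim2), 1 in TLR3-MSC joints (Sdf2l1) and 2 in STING-MSC joints (Edem1 and Sdf2l1) against control, beside 5.64%, 2.68% and 6.54% of all genes higher. Between TLR3-MSC and MSC joints, where 3.88% of all genes passed, Prdm1, the factor that drives plasma cell differentiation, was higher (0.45 on the log2 scale, limma p = 0.0444, FDR = 0.978, exact permutation p = 0.175). Pim2, a survival kinase, was lower there (-0.43, limma p = 0.0475, FDR = 0.978, exact permutation p = 0.0794). Edem1 and Sdf2l1 act in protein folding and degradation at the endoplasmic reticulum of secretory cells of many kinds. Sdc1 (CD138), a surface proteoglycan of plasma cells and of epithelial and stromal cells, was lower in STING-MSC joints. Its normalized counts were 1790.0, 2742, 5629.9, 6079.8 and 1786 in control joints and 1341, 1555, 1533, 1529 and 1191 in STING-MSC joints. Sdc1 counts were 1561, 4758, 1418, 1037 and 2115 in MSC joints and 1826, 3408, 2089, 1599 and 4344 in TLR3-MSC joints. Every STING-MSC joint was below every control joint, as for 1.24% of all genes, and the difference was -1.14 on the log2 scale (95% interval -1.97 to -0.30, limma p = 0.0103, FDR = 0.330, exact permutation p = 0.00794). Jchain in the same STING-MSC joints overlapped the control joints.

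Among 8 ligands of the B-cell niche, Cxcl13, the chemokine that draws B cells into lymphoid follicles, was higher than control in all 3 MSC groups at an unadjusted p of 0.05. Its normalized counts were 59.3, 12.1, 7.54, 22.8 and 11.6 in control joints and 71.7, 82.5, 37.8, 35.4 and 67.2 in MSC joints. Cxcl13 counts were 30.3, 22.6, 109.9, 41.4 and 36.2 in TLR3-MSC joints and 57.7, 41.6, 28.2, 38.7 and 55.6 in STING-MSC joints. The control group held 1 high joint, replicate 1, inside the range of the treated joints. The log2 fold change in MSC joints was 1.64 (limma p = 0.00249, FDR = 0.302, exact permutation p = 0.0317). In TLR3-MSC joints it was 1.2 (limma p = 0.0192, FDR = 1.00, exact permutation p = 0.103) and in STING-MSC joints 1.27 (limma p = 0.0141, FDR = 0.341, exact permutation p = 0.0635). The 3 comparisons share the control joints, and the Cxcl13 receptor gene Cxcr5 gave log2 fold changes of 0.38, -0.03 and -0.04. Tnfsf13b (BAFF), a survival factor for mature B cells, was higher than control in MSC and STING-MSC joints at an unadjusted limma p of 0.05. The differences were 0.49 on the log2 scale (exact permutation p = 0.0159) and 0.35 (exact permutation p = 0.0873). Among all genes, 5.64%, 2.68% and 6.54% were higher in MSC, TLR3-MSC and STING-MSC joints against control. Tnfsf13b was lower in TLR3-MSC than in MSC joints at this threshold, where 3.88% of all genes passed in either direction. The lowest limma FDR of the 8 ligands was 0.978 in that comparison. Against control it was 0.302 in MSC joints and 0.341 in STING-MSC joints.

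Markers of the other cells that such tissue could hold were read beside these results. The summed level of 12 T-cell genes lay between 1006 and 3067 normalized counts over the 20 joints. Of the markers, 0 of 12 erythroid and 0 of 10 muscle genes were called in any comparison. In TLR3-MSC joints against control, 2 of 7 adipocyte genes, Plin1 and Cfd, were past a 2-fold change, beside 0.331% of all genes. In STING-MSC joints against TLR3-MSC joints, 3 of 7 epidermal genes were past a 2-fold change and lower (Krt5, Krt10 and Lor). Of all genes, 0.622% were past it in either direction, and the lowest limma FDR of the epidermal list was 0.890. TLR3-MSC replicate 4 had 3587 normalized counts of Krt5, and the other TLR3-MSC joints had 2.43 to 119. The epidermal list summed to between 71.0 and 186 in STING-MSC joints and between 176 and 25562 in TLR3-MSC joints. The highest was a sum over 7 genes in a single joint. Against control, STING-MSC joints had 0 of 7 adipocyte, 0 of 7 epidermal, 0 of 7 cartilage and 0 of 8 osteoblast genes called. The cartilage list still had a median log2 fold change of -0.50 there, with 2 of 7 genes above 0, and the osteoblast list one of -0.21, with 1 of 8 above 0 and the lowest at -0.88. The summed level of the osteoblast genes was 152259 to 552830 normalized counts in control and 116285 to 225035 in STING-MSC joints, and that of the cartilage genes 23924 to 148433 and 25223 to 66623. The part of these cells in the Ebf1 difference was not tested. Of 11 monocyte and macrophage genes, Lyz2 and Ly6c2 were higher in MSC joints, and these and Ccr2 in STING-MSC joints, against control. Over all genes, 5.64% and 6.54% were higher there. Of 12 cell cycle genes, 0 were called in any comparison.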

How the data were processed

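Per the labels and the study's methods, the authors aligned paired reads to GRCm39 with STAR 2.7.3a, counted them per gene with HTSeq and deposited the DESeq2 median-of-ratios normalized counts, a signal scaled between joints, with replicates kept apart. Values were whole multiples of a step per joint for 99.8% to 99.9% of genes (tolerance 0.1 read), which gave recovered reads and depth.

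Members, lists and tests were chosen with earlier results of these data known. All 14793 genes were fitted with limma 3.58.1 in R 4.3.3 (trend, log2 of normalized count + 1, 20 joints, 4 groups, no block), since the values were not raw counts. A minimum mean of 5 normalized counts removed 0 genes, as the lowest mean of the 14793 genes was 9.40. Shares of all genes are therefore shares of genes at or above that level. Exact permutation tests used the 252 splits of 5 against 5 joints. Relations used 100000 permutations of log2 levels less group means, exchanged over all joints without regard to group. All tests were two-sided. Full values were given for stage genes and members past an unadjusted p of 0.05, and from wider lists for genes past a 2-fold change as well or entering a relation. Alternatives were pseudocounts of 0.5 and 5, a mean of at least 20, only the groups compared, quantile normalization, edgeR 4.0.16 and DESeq2 1.42.0 on recovered reads, a replicate block and leaving out each joint. The fit was tested on simulated data. Joints came from separate mice. Results for some genes of the wider lists are not reported here.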

Additional observations from a re-analysis of the deposited data

Results flagged for a closer look

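Of the 128 sets of 5 joints (32 genes in 4 groups), 10 held a joint far from the rest by Dixon's test at the 95% level, and chance alone flags about 5 in 100 such sets. Because the members move together across joints, the sets are not independent.

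Control replicate 4 was the low joint in 5 of them. It had 142 normalized counts of Lef1 (the other control joints had 246 to 293), 319.7 of Blk (538 to 661), 282 of Bank1 (495 to 596), 418 of Cd22 (778 to 939.9) and 154 of Fcer2a (375 to 466). Control replicate 3 had 790.5 of Rag1, beside 1178 to 1273 in the other control joints.

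TLR3-MSC replicate 3 was low for Blk, at 385 (538 to 611 in the others), and for Fcer2a, at 210.5 (364 to 396). MSC replicate 2 had 384 of Bank1 (654 to 743 in the others). STING-MSC replicate 1 had 353 of Dntt (619 to 747 in the others). Each of the 10 values was the lowest of its set.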

How the results depend on the processing

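In MSC joints against control, 0 members passed an unadjusted p of 0.05. The count was 1 with only the 2 groups compared and 1 with quantile normalization (Rag2 in both), 2 with edgeR and 2 with DESeq2 on recovered reads (Rag2 and Bank1), and 0 to 5 with each joint left out, 5 without MSC replicate 2. In TLR3-MSC joints against MSC it was 0, 1 with DESeq2 (Rag2), and 0 to 8 with each joint left out. The 8 came without MSC replicate 2 and were Vpreb1, Vpreb3, Rag1, Rag2, Pou2af1, Bach2, Bank1 and Cd72. In STING-MSC joints against MSC it was 0, and 0 to 3 with each joint left out, 3 without MSC replicate 2 (Rag1, Bach2 and Bank1). In TLR3-MSC joints against control the count was 0 under every alternative run. The share of all genes called under each alternative is not given here, and these counts are not read as a result about the members.

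In STING-MSC joints against control the count was 1, and 1 to 2 with each joint left out, the second being Rag2 without STING-MSC replicate 1. Ebf1 passed under every alternative run for that comparison. In STING-MSC joints against TLR3-MSC the count was 1, and 0 to 1 with each joint left out. Ebf1 lost its call there without TLR3-MSC replicate 2, 3 or 5 or STING-MSC replicate 1, 2, 4 or 5.

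Same-numbered joints came from different mice and their deviations correlated between -0.66 and 0.46, so the numbers do not pair them. A replicate block gave 0 calls in STING-MSC joints against TLR3-MSC and changed no other count.

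Without MSC replicate 2, an alternative chosen after seeing the data, Igll1 with Jchain gave r = 0.536 and passed by Pearson only (rho = 0.407, adjusted permutation p = 0.193, and r = 0.315 without 2 further joints), and Igll1 with Alas2 gave r = 0.434 and did not. No alternative gave a member an FDR of at most 0.05 or a call past a 2-fold change. Causes were not tested. With 5 joints a group, the median half-width of the members' 95% intervals was 0.53 on the log2 scale, so many smaller differences would not pass.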

Other observations

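Ebf1 and Sdc1, both lower in STING-MSC joints against control, had their 4 highest levels in the same joints, namely control replicates 3 and 4, MSC replicate 2 and TLR3-MSC replicate 5. Control replicate 4 had 3397 normalized counts of Ebf1 and 6080 of Sdc1. The lowest Ebf1 and the lowest Sdc1 were both in MSC replicate 4, at 1166 and 1037 normalized counts. Control replicates 3 and 4, MSC replicate 2 and TLR3-MSC replicate 5 also had the 4 highest levels of the bone and cartilage genes Col1a1, Ibsp, Alpl, Acan, Col2a1, Comp and Sox9, 7 of the 15 genes of the osteoblast and cartilage lists. Col1a1 was at 506977, 487608, 371435 and 288074 normalized counts in them. This pairing was noticed after the values were seen and was not tested.

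The 12 cell cycle genes were above 0 in log2 fold change in STING-MSC joints against each of the other 3 groups, with medians of 0.21 against control, 0.17 against MSC and 0.22 against TLR3-MSC joints, and 0 of them were called at an unadjusted p of 0.05. The erythroid markers moved the same way, with 11, 12 and 11 of 12 above 0 and medians of 0.23, 0.24 and 0.17, and 0 of them were called either. Over all genes 51.7%, 55.5% and 55.3% were above 0. The 3 comparisons share the STING-MSC joints, and the part of red cell precursors in the cell cycle genes was not tested. The summed level of these genes was 65808 to 122006 normalized counts in control, 58531 to 114304 in MSC, 63909 to 137592 in TLR3-MSC and 78722 to 125026 in STING-MSC joints, so the groups overlapped.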
